A study of Mus musculus with 8 samples.

Results

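The genes described here are a module of 59 nucleolar, ribosome biogenesis and MYC target genes, read out of the 32285 genes of a single-nucleus UMI table. Its members were taken from a list of names chosen with earlier results of these data known. All 59 were present in the table, with 308 to 27730 UMIs each and 200530 UMIs in all. They were assigned to 8 roles: 6 genes of RNA polymerase I and its factors, 4 nucleolar scaffold and chaperone proteins, 3 proteins of the box C/D small nucleolar ribonucleoprotein (snoRNP), 4 of the box H/ACA snoRNP, 17 genes of the small subunit processome and 40S maturation, 15 of large subunit maturation, 2 other nucleolar RNA factors and 8 MYC targets outside the nucleolus.

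The study sorted lineage-negative, Sca1-positive, Kit-positive (LSK) marrow cells, which include blood stem cells and multipotent progenitors, from WT mice and from T58A littermates, which carry a point mutation in MYC at a residue whose phosphorylation marks the protein for degradation. Nuclei were profiled with the 10x multiome assay, which reads RNA and open chromatin from one nucleus. The design had 2 RNA samples and 2 chromatin samples for each genotype, with 2 mice pooled in each sample, and the sources used here do not state the age of the mice. The RNA table holds 8708 nuclei in 4 barcode sets told apart by a suffix of the barcode; no label ties a set to a genotype or to a replicate, and the table is named for T58A alone. WT and T58A were therefore not compared, the table was treated as 1 sample, and the values of the 4 sets stand beside the pooled value without being replicates.

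Ribosome production starts in the nucleolus, where RNA polymerase I transcribes the ribosomal RNA precursor. Small nucleolar RNPs modify the precursor, the small subunit processome folds and cleaves it, and further factors mature the 40S and 60S subunits on their way to the cytoplasm. MYC binds the promoters of many of these genes at the sequence CACGTG, called an E-box, and the pathway is known to be active in dividing progenitors and in early erythroid cells, which make large amounts of protein before the nucleus condenses.

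Sets 1 to 4 held 2999, 721, 2756 and 2232 nuclei. Their median depth was 3035, 6764, 3638.5 and 5930.5 UMIs per nucleus, and mitochondrially encoded genes took 24.6%, 9.98%, 24.2% and 9.22% of the UMIs. Member levels are therefore given over non-mitochondrial UMIs, either summed per 10000 or, for one gene, as counts per 1000000 (CPM). The module took 50.7, 51.9, 53.5 and 54.6 UMIs per 10000 in the 4 sets, a narrower range than those of depth and mitochondrial share. Of the barcode sequences, 36 occurred in more than 1 set.

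Nuclei were put into classes by the summed level of marker genes, none of which is a member; a class is a range of marker level and not a proven cell type. Stem-gated nuclei (1803) were defined by Hlf, Mecom, Procr, Fgd5 and Rarb, and erythroid-gated nuclei (522) by Car1, Slc25a21, Ermap, Kel, Klf1, Gata1 and Epor. Lymphoid-gated (844), myeloid-gated (859) and megakaryocyte-gated (333) nuclei were defined in the same way, and 3215 nuclei met no gate. Another 356 nuclei met more than 1 gate and were left out. Genes that were not used for the gates followed the names: Ank1, a membrane skeleton gene of red cells, was at 477 CPM in erythroid-gated and 4.02 CPM in stem-gated nuclei, and Prdm16, a stem cell regulator, was at 182 CPM in stem-gated and 19.2 CPM in erythroid-gated nuclei. Of the sort markers, Kit was at 716 CPM in stem-gated and 693 CPM in erythroid-gated nuclei, while Ly6a, which encodes Sca1, was at 18.2 and 0.870 CPM; late erythroid-gated nuclei, described last, had 173 CPM of Kit and 0 of Ly6a. Within 25% of its gate threshold, the stem class held 382 nuclei and the erythroid class 10. Just below these thresholds, again within 25%, lay 680 and 117 other nuclei.

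The promoters of the 4 members with the largest erythroid-to-stem ratio on the log2 scale of CPM plus 10, among those with at least 200 counts, are shown because the E-box is the sequence at which MYC is known to bind. Each window of the RefSeq promoter table runs from 250 bases before to 50 bases after a start site on GRCm38.p6, the same assembly as mm10. That start need not be the outer end of the annotated gene, as for Nop56, and a gene can have several windows. Capitals mark CACGTG, which reads the same on both strands. Tmem97 lies on the minus strand of chr11:78550686-78550985, Nop56 on the plus strand of chr2:130274162-130274461, Hspe1 on the plus strand of chr1:55087898-55088197 and Hspd1 on the minus strand of chr1:55088194-55088493. The genes Hspe1 and Hspd1 lie head to head, and their annotated bodies overlap.
Tmem97: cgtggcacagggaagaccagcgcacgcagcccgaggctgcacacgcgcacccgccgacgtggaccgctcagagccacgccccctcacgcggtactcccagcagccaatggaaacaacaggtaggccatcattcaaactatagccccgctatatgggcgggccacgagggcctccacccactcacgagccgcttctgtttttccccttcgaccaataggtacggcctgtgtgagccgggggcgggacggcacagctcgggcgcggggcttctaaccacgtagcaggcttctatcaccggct
Nop56: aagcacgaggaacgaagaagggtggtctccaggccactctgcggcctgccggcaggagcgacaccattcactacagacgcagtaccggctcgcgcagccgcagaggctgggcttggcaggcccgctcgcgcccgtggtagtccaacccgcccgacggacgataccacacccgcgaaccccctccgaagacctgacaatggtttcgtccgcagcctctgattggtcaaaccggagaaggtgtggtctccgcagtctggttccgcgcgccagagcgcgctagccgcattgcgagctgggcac
Hspe1: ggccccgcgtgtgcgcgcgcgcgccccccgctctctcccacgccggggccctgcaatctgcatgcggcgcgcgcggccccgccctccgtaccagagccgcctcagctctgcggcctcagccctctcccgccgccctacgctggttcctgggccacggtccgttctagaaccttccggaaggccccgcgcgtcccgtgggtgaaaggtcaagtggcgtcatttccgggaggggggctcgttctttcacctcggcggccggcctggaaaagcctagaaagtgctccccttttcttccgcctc
Hspd1: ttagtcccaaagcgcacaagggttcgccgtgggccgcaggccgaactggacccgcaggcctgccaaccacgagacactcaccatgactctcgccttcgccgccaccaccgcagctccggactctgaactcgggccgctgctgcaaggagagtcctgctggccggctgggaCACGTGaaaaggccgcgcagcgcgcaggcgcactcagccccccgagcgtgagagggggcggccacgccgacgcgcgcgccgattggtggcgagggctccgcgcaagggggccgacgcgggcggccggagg

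Of these 4 members, Hspd1 holds CACGTG in the window shown, 80 bases before its start site, and not in its second window, and the windows of the other three do not hold these letters. The Hspd1 E-box lies past the end of the Hspe1 window but inside the annotated body of Hspe1. Over the 52 members matched to the RefSeq windows, 14 (26.9%) held CACGTG, beside 1043 of 8458 matched genes measured in the erythroid comparison (12.3%) and 7.15% of all 32851 windows. Where members held an E-box it often lay close to the start site: 9 of the 15 (60.0%), each in a different member, began in the last 50 bases of the window, after the start, beside 361 of 2589 (13.9%) over all windows. Those 9 are shown with up to 10 bases on each side, as the E-boxes that follow the start; 38 matched members held no CACGTG.
Pes1: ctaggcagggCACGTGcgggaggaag
Ipo4: tcggagtctcCACGTGccgatcctcc
Utp4: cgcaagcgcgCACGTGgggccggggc
Wdr43: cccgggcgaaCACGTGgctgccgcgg
Tsr1: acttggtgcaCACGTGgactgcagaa
Ltv1: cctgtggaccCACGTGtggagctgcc
Grwd1: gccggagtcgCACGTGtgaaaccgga
Utp20: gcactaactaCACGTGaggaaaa
Mybbp1a: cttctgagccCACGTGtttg

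These run from 3 bases after the start in Pes1 (chr11:3963967-3963992, plus strand) to 41 bases after it in Mybbp1a (chr11:72441357-72441376, plus strand). Rrn3 was the member with more than 1 E-box, at 215 and 48 bases before its start. The letters did not sort the members by their erythroid ratio: the 14 with CACGTG included Nop2 and Tsr1, among the largest ratios, and Imp4 and Ltv1, the lowest ratios among members with at least 200 counts. A match of letters is a description and not a bound site.

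The summed level of the module was lowest in stem-gated nuclei among the progenitor classes and highest in erythroid-gated nuclei. It was 45.8 per 10000 in stem-gated nuclei (95% exact Poisson interval 45.3 to 46.3), with 42.3, 42.1, 45.4 and 48.3 in sets 1 to 4. It was 88.1 in erythroid-gated nuclei (interval 87.2 to 89.1), with 85.6, 89.1, 85.7 and 95.4 in the sets. The sets of these 2 classes did not overlap, and the pooled ratio was 1.92 (1.89 to 1.95). Such intervals cover counting error only.

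Myeloid-gated nuclei came next at 58.7 per 10000, with 52.1, 63.1, 52.6 and 61.5 in the 4 sets. Megakaryocyte-gated nuclei were at 53.7 (sets 46.8 to 58.7) and lymphoid-gated nuclei at 47.3 (sets 44.1 to 50.1). Within each set the megakaryocyte class was above both the stem and the lymphoid class, although the ranges over sets overlapped. The lymphoid class was above the stem class in 3 of the 4 sets and below it in set 3, so these neighbours did not separate. Nuclei that met no gate were at 51.3.

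**Figure D1:**
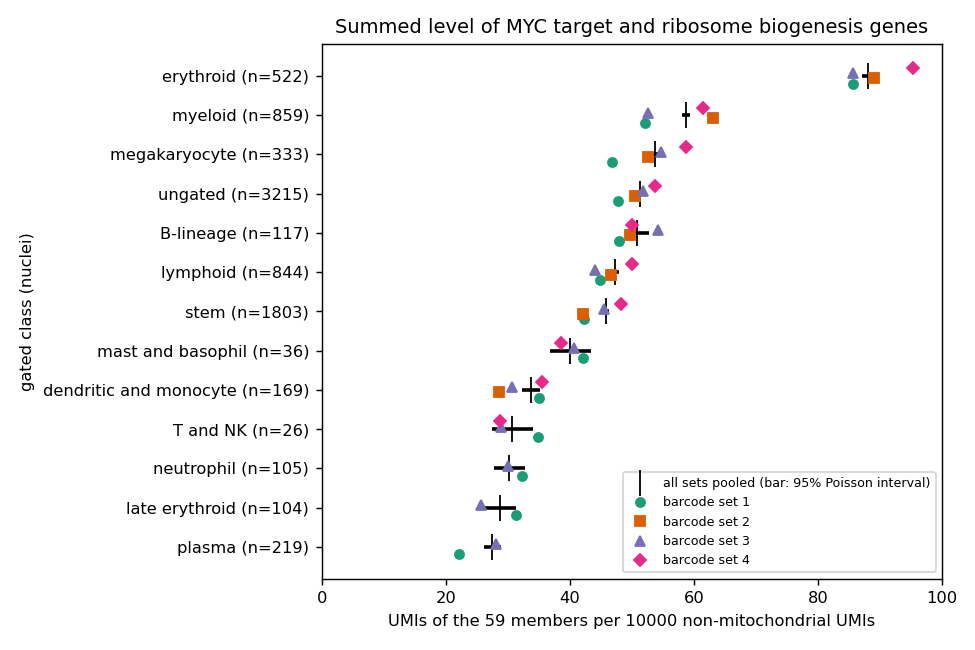
Summed UMIs of the 59 members per 10000 non-mitochondrial UMIs (x axis) in each gated class (y axis, with the number of nuclei); black marks are pooled values with 95% Poisson intervals and symbols are barcode sets with at least 5 nuclei. Erythroid-gated nuclei sit at 85.6 to 95.4 in the 4 sets, above the sets of the other classes, and late erythroid, plasma and neutrophil nuclei sit between 22.1 and 32.3.

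Below the stem level lay the classes of mature or off-lineage cells, which an LSK sort should leave out. Plasma-gated nuclei (219) were at 27.5 per 10000, late erythroid-gated (104) at 28.8, neutrophil-gated (105) at 30.2 and dendritic and monocyte-gated (169) at 33.7. In plasma-gated nuclei the median log2 ratio of members to stem-gated nuclei was -0.50, beside -0.48 for all measured genes. It was -0.23 beside -0.17 in dendritic and monocyte-gated nuclei, and -0.41 beside -0.29 in neutrophil-gated nuclei of sets 1 and 3. In these classes the members were thus close to all measured genes. B-lineage-gated nuclei (117) were at 50.8, within the range of the progenitor classes.

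Nuclei of the erythroid class were deeper than those of the stem class, with medians of 5858 and 3323 non-mitochondrial UMIs. After each nucleus was thinned to 2000 UMIs, the median number of members detected was 12 in 474 erythroid-gated nuclei and 7 in 1412 stem-gated nuclei, with 48 and 391 shallower nuclei left out; unthinned medians were 25 and 10. Within the stem class, the 602 nuclei with the fewest UMIs had a module level of 42.7 and the 601 deepest had 47.0. The 174 shallowest erythroid-gated nuclei, with 958 to 4381 UMIs, were at 84.2 and the 174 deepest at 88.7. The shallowest erythroid-gated nuclei were thus above the deepest stem-gated nuclei, which had 4507 to 22648 UMIs.

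The level also differed inside the stem class. The 601 stem-gated nuclei with the highest stem marker level had 40.2 module UMIs per 10000 (36.3, 37.5, 41.2 and 42.0 in the sets), the middle 601 had 47.4 and the lowest 601 had 48.3 (45.1, 45.0, 48.0 and 50.4). In each set the nuclei with most stem marker RNA were lower than both other groups. In erythroid-gated nuclei the same split by erythroid marker level gave 82.1 for the lowest, 91.6 for the middle and 89.1 for the highest 174 nuclei.

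Set gene by gene against stem-gated nuclei, the erythroid class had all 59 members at a ratio above 1. A gene was called higher or lower where its ratio, on CPM plus 10, was at least 1.5-fold and of one direction in all sets with nuclei; this is a rule of size and not a test, as the table is 1 sample. By this rule 37 of 59 members (62.7%) were higher and 0 lower, beside 13.5% of the 10698 measured genes called higher and 21.8% lower. The background was 18.2% higher among genes with at least 500 counts and 13.9% among genes of up to 50 kb. The median log2 ratio of the members was 0.85, from 0.73 to 0.90 in single sets, and that of all measured genes was -0.02. In sets 1 to 4, 58, 50, 58 and 59 members were above stem-gated nuclei. Set 2 holds 10 erythroid-gated nuclei. Rrp9, Bysl, Noc4l, Ubtf, Bop1 and Farsa reached 1.5-fold but were higher in 3 of the 4 sets only, so they were not called. The pooled ratios of Rrp9, Bysl and Noc4l were 3.46, 2.97 and 2.89, on 82, 81 and 80 erythroid counts.

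**Figure D2:**
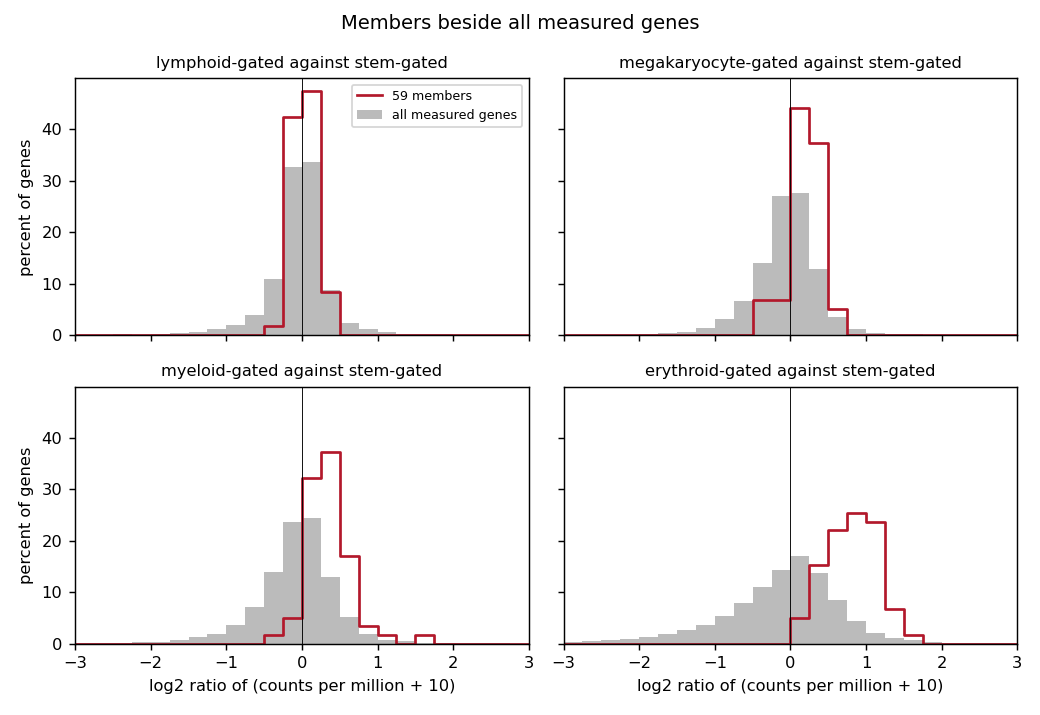
Distribution of the log2 ratio of CPM plus 10 to stem-gated nuclei (x axis, bins of 0.25) as a percent of genes (y axis) for all measured genes (grey bars) and the 59 members (red line) in 4 classes. The members centre at 0.02 in lymphoid, 0.23 in megakaryocyte, 0.31 in myeloid and 0.85 in erythroid nuclei, while all genes centre near 0.

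Among RNA polymerase I genes, 4 of 6 were higher in erythroid-gated nuclei: Polr1a, Polr1b and Polr1c, which encode polymerase subunits, and Rrn3, the factor that brings the polymerase to its promoter. Polr1a, the subunit gene with most UMIs, was at 186, 167, 157 and 154 CPM in sets 1 to 4 of the erythroid class and at 81.6, 72.2, 75.3 and 92.0 CPM in stem-gated nuclei. The sets of the classes did not overlap, and the pooled ratio was 1.98 (1.76 to 2.22). For Polr1b, the other large catalytic subunit, the pooled levels were 94.9 and 45.4 CPM, a ratio of 2.09 (1.79 to 2.44). Ubtf, which keeps ribosomal DNA open, had a pooled ratio of 1.84 (1.61 to 2.09) but failed the rule through set 2, at 39.7 against 54.9 CPM. Tcof1, a nucleolar factor of polymerase I transcription, was at 84.1 and 59.9 CPM and did not reach 1.5-fold.

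All 4 nucleolar scaffold and chaperone genes were higher. Nolc1, a chaperone of snoRNPs, had the largest ratio of them, 2.19 (1.93 to 2.47), with 138 to 175 CPM over the erythroid sets and 55.4 to 77.3 CPM over the stem sets. Npm1, the nucleophosmin gene, was at 651 against 335 CPM. Ncl, which encodes nucleolin and held 13.8% of all member UMIs, was at 970, 898, 1109 and 1180 CPM in the erythroid sets and at 627, 557, 750 and 691 CPM in the stem sets, a ratio of 1.59 (1.52 to 1.66) that was among the smallest called.

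Of the box C/D snoRNP, which guides methylation of ribosomal RNA, Nop56 and Nop58 were higher and the methyltransferase gene Fbl was at 74.0 against 47.2 CPM without passing the rule. Nop56 was at 533, 318, 541 and 550 CPM in the erythroid sets and at 183, 152, 205 and 199 CPM in the stem sets. The lowest erythroid set lay above the highest stem set, and the pooled ratio was 2.78 (2.59 to 2.97). Nop56 also hosts 5 snoRNA genes in its body, and the gene Idh3b overlaps it, so part of its counts may belong to that neighbour. Nop58, with 551 against 305 CPM, hosts 4 snoRNA genes.

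In the box H/ACA snoRNP, which guides pseudouridylation, Dkc1, Nhp2 and Gar1 were higher and Nop10 was not called. Dkc1, the pseudouridine synthase, was at 201, 373, 199 and 267 CPM in the erythroid sets and at 86.1 to 113 CPM over the stem sets, a ratio of 2.10 (1.90 to 2.32). Gar1 was the smallest of the called members on the log2 scale, 0.63, with 44.7 against 25.4 CPM.

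The small subunit processome and 40S maturation group had 9 of 17 members higher. Nat10, the RNA acetyltransferase, had the largest log2 ratio of them, at 128, 191, 145 and 132 CPM in the erythroid sets and 47.9, 42.7, 58.5 and 53.6 CPM in the stem sets. Heatr1, a scaffold of the processome, was at 198 against 79.3 CPM, a ratio of 2.5 (2.24 to 2.8). Wdr43, the member of this group with most UMIs, was at 444 to 526 CPM over the erythroid sets and 209 to 274 CPM over the stem sets. Tsr1 and Rrp12, both factors of late 40S maturation, had ratios of 2.53 (2.13 to 3.0) and 2.64 (2.12 to 3.29). The members with the lowest ratios among those with at least 200 counts belong here too: Ltv1, a 40S export factor, was at 34.5 against 29.6 CPM, and Imp4, a processome protein, at 24.7 against 19.6 CPM. Both ratio intervals, 0.927 to 1.46 and 0.953 to 1.65, include 1.

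Of 15 large subunit maturation genes, 10 were higher. Nop2, an RNA methyltransferase, was at 86.8, 47.7, 74.8 and 67.6 CPM in the erythroid sets and 22.9 to 32.9 CPM over the stem sets, a ratio of 2.93 (2.43 to 3.55). Gnl3, or nucleostemin, a nucleolar GTP-binding protein, was at 402 to 559 CPM against 149 to 233 CPM, a ratio of 2.39 (2.22 to 2.57). Mrto4, which occupies the ribosomal stalk site during assembly, had 40.9 against 12.7 CPM, and its set 2, at 15.9 CPM, was close to the stem level of that set, 13.2 CPM. Nip7 and Las1l, a pre-60S factor and a nuclease of spacer removal, passed with small log2 ratios of 0.64 and 0.63.

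Neither of the other nucleolar RNA factors was called. Ddx21, a helicase tied to polymerase I transcription and processing, was at 299, 310, 322 and 427 CPM in the erythroid sets and 150, 223, 256 and 284 CPM in the stem sets, so that each erythroid set was above its stem set but the pooled ratio was 1.38 (1.28 to 1.48). Exosc5, an exosome subunit, was at 38.6 against 30.2 CPM.

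The MYC targets outside the nucleolus had the largest median of the role groups, with 5 of 8 higher and a median log2 ratio of 1.14. Tmem97, a sterol-related membrane protein, was at 62.7, 119, 48.3 and 77.4 CPM in the erythroid sets and 12, 14.2, 15.2 and 12.1 CPM in the stem sets, a ratio of 4.74 (3.72 to 6.06). Both genes of the mitochondrial chaperonin were higher: Hspe1 was at 132 against 46.6 CPM, a ratio of 2.83 (2.46 to 3.26), and Hspd1 at 370 against 148 CPM, a ratio of 2.5 (2.31 to 2.71). Pprc1, a coactivator of mitochondrial gene programs, had a ratio of 2.63 (2.29 to 3.02). Srm, the spermidine synthase gene, was at 26.7 against 7.78 CPM. Aimp2, a scaffold of the tRNA synthetase complex, had the lowest log2 ratio of all members, 0.14, on 42 and 78 counts. Hspd1, Hspe1, Fbl and Mrto4 have named pseudogenes, and their counts may be split with those copies. In all, 14 members overlap another protein-coding gene, Dkc1, Nhp2, Tsr1, Nat10, Gnl3, Wdr12, Las1l and Mybbp1a among them, and whether the counting used strand is not stated.

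**Figure D3:**
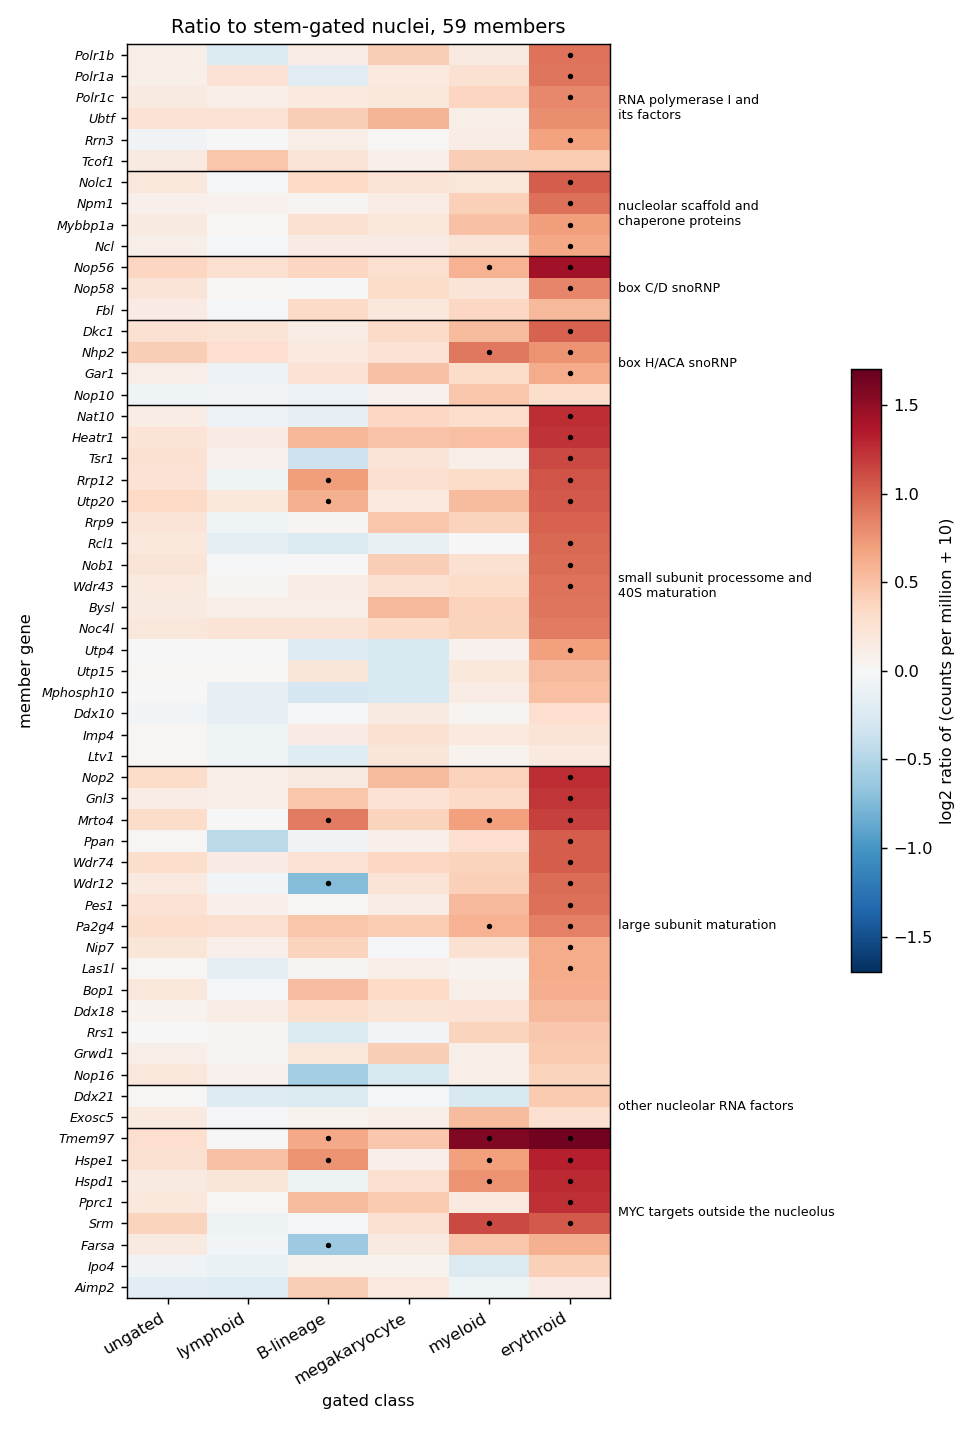
Log2 ratio of CPM plus 10 to stem-gated nuclei (colour scale) for the 59 members (y axis, grouped by role) in 6 classes (x axis); a dot marks a member that passed the 1.5-fold rule. The erythroid column holds 37 dots and all 59 ratios above 1, the myeloid column 8 dots and the lymphoid and megakaryocyte columns none.

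Other features divided the members little. The 8 members that host snoRNA genes, 21 in all, had a median log2 ratio of 1.02, and the 51 others 0.79. Members with CACGTG in a promoter window had a median of 0.70 and those without 0.89. The genes are short, with a median length of 12.2 kb and 56 of 59 up to 50 kb.

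Erythroid-gated nuclei also differed from stem-gated nuclei in the cell cycle. Of them, 98.3% met a gate of at least 8 cell cycle gene UMIs per 10000, beside 67.8% of stem-gated nuclei, and mitochondrial genes took 27.8% of their UMIs beside 13.7%. At a cell cycle level of at least 40 in both classes, 461 erythroid-gated nuclei had 88.6 module UMIs per 10000 and 484 stem-gated nuclei had 48.0. There 35 members were higher and 0 lower (background 13.6% and 18.9%), with a median log2 ratio of 0.82, and 33 of them were also called over all nuclei. Outside the cycling gate only 9 erythroid-gated nuclei remained; 35 members were measured, 7 were higher and 11 lower, beside 11.2% and 40.4% of all measured genes, and the median log2 ratio was 0.29. With CPM taken over all UMIs, mitochondrial ones included, 28 members were higher and 0 lower, the median log2 ratio was 0.60, and 7.67% of all genes were higher and 25.5% lower.

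Within stem-gated nuclei the module was also higher at higher cell cycle levels. It was 40.7 per 10000 in the 530 nuclei under 8, 46.3 between 8 and 40 and 48.0 at 40 or more. In sets 1 to 4 it was 39.2, 37.7, 41.7 and 41.8 under 8 and 41.9, 43.8, 47.2 and 50.9 at 40 or more. Each set was thus higher at 40 or more than under 8. Between 8 and 40 the sets were at 44.2, 43.3, 46.4 and 48.2, so set 1 was lower at 40 or more than in this middle range. Between cycling and other stem-gated nuclei 1 of 59 members was called, Nop58, which was higher at 332 against 208 CPM, a ratio of 1.60 (1.43 to 1.80); the background was 4.50% higher and 1.77% lower. Set at 40 or more against under 8, Nop58, Nop56 and Pa2g4 were higher and 0 were lower of 52 measured (background 7.38% and 5.32%). In both comparisons the share of members called higher was below its background. Pa2g4, a ribosome-associated regulator of growth, was at 113 against 68.2 CPM. Among members with at least 200 counts, the lowest ratios in the cycling comparison were those of Ltv1, 0.760 (0.563 to 1.04), and Rcl1, 0.842 (0.684 to 1.04).

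**Figure D4:**
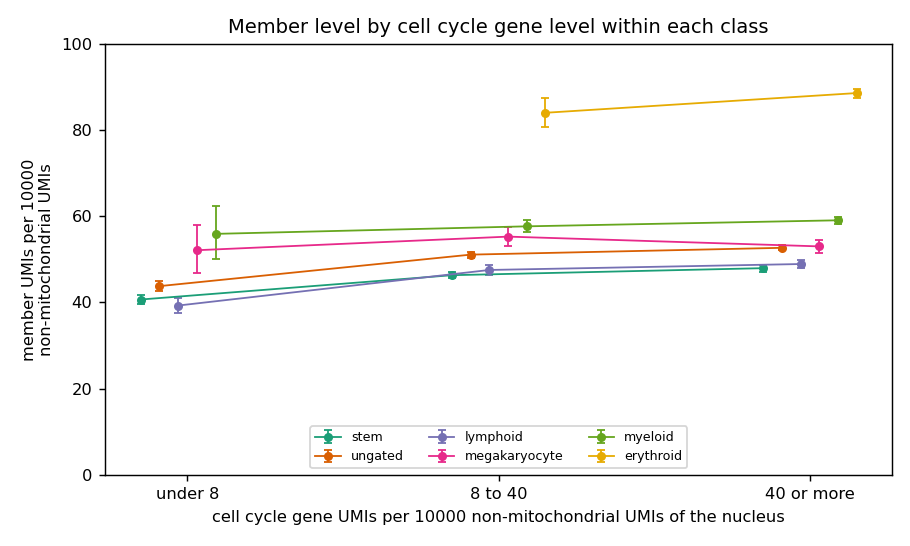
Summed member UMIs per 10000 non-mitochondrial UMIs (y axis) by the level of cell cycle genes in the nucleus (x axis, 3 ranges) for 6 classes; points are pooled values, bars 95% Poisson intervals, and groups under 20 nuclei are left out. In the ranges shown for it, the erythroid class lies at 84.0 and 88.6, above each other class at the same cell cycle level. Stem-gated nuclei go from 40.7 to 48.0. The 7 erythroid-gated nuclei under 8, left out, were at 51.2 (39.8 to 64.8). That value is below the myeloid (55.9) and megakaryocyte (52.1) classes and above the stem (40.7), ungated (43.8) and lymphoid (39.3) classes.

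Myeloid-gated nuclei, defined by Mpo, Elane, Ctsg, Prtn3 and Ms4a3, had 8 of 59 members (13.6%) higher and 0 lower, beside 6.57% and 12.4% of the 10968 measured genes. The members called were Tmem97, Srm, Nhp2, Hspd1, Hspe1, Mrto4, Pa2g4 and Nop56, and 4 of these 8 are MYC targets outside the nucleolus. Srm was at 18.9, 36.7, 21.9 and 31.0 CPM in sets 1 to 4 of the myeloid class and at 4.88 to 9.73 CPM over the stem sets, a ratio of 3.69 (2.71 to 5.08). Tmem97 was at 38.9 to 71.7 CPM over the sets, a ratio of 4.50 (3.57 to 5.70). The sets of both genes lay clear of the stem sets.

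Nhp2 was at 37.7 against 15.7 CPM, the largest ratio among the nucleolar members, 2.40 (1.90 to 3.05). Nop56, at 293 against 192 CPM, passed with the smallest log2 ratio, 0.59. No member of the RNA polymerase I, scaffold or small subunit groups was called, and the median log2 ratio of the 59 was 0.31 (0.22 to 0.49 in single sets). Among members with at least 200 counts Ddx21 had the lowest ratio, 0.829 (0.767 to 0.895), and Rcl1, a processome factor, followed at 0.990 (0.856 to 1.14). Gating at halved thresholds left 4 members called, and a pseudocount of 1 gave 14, both given without the share of all genes called.

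Erythroid-gated and myeloid-gated nuclei were also set against each other, since both were above the stem level. Of 59 members, 20 were higher in the erythroid class and 0 lower, beside 12% and 15.9% of all measured genes, with a median log2 ratio of 0.51. They were Polr1a, Polr1b, Nolc1, Nop56, Nop58, Heatr1, Utp4, Wdr43, Rcl1, Rrp12, Nob1, Tsr1, Nat10, Nop2, Ppan, Gnl3, Ddx21, Hspe1, Ipo4 and Pprc1. Sets 1 to 4 held 191, 10, 245 and 76 erythroid-gated and 277, 146, 199 and 237 myeloid-gated nuclei. With such unlike shares a pooled ratio can lie outside the range of the single sets. Hspd1 was not called, at a pooled log2 ratio of 0.51, although its single sets were at 0.70 to 0.95. On the log2 scale of CPM plus 10 the largest ratios were those of Pprc1, 131 against 57.5 CPM, Tsr1, 85.9 against 37.3 CPM, Rcl1, 135 against 63.2 CPM, and Nat10, 138 against 66.7 CPM. On pooled counts Exosc5, at 38.6 against 48.5 CPM, and Nop10, at 33.1 against 38.5 CPM, had the lowest ratios of members with at least 200 counts. Within each of the 4 sets, however, Nop10 was higher in the erythroid class, with log2 ratios of 0.05 to 0.57. Over the progenitor classes and the ungated nuclei, 51 members had their highest pooled level in the erythroid class. Of the rest, the pooled levels of Nop10, Nhp2, Exosc5 and Srm were highest in the myeloid, Imp4, Ltv1 and Aimp2 in the megakaryocyte and Tcof1 in the lymphoid class. Single sets did not all keep this order. The erythroid class was above the myeloid class in 4 of the 4 sets for Nop10, in 3 for Nhp2 and Srm and in 1 for Exosc5.

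In lymphoid-gated nuclei, defined by Dntt, Cmah, Arpp21, Fgf13 and Il7r, 0 members were called in either direction, beside 4.06% of genes higher and 7.03% lower. The median log2 ratio was 0.02, from -0.10 to 0.07 in single sets. Of members with at least 200 counts, the lowest ratios were those of Ppan, a 60S maturation factor, 44.4 against 64.6 CPM, and Polr1b, 37.2 against 45.4 CPM. Megakaryocyte-gated nuclei, defined by platelet lineage genes that included Vwf, Itga2b, Pf4, Rab27b and Gp1bb, also had 0 members called, beside 3.71% higher and 8.93% lower, although 51 of 59 ratios were above 1 and the median log2 ratio was 0.23 (0.08 to 0.31 in single sets). Up to 6 members were called there under other settings, for example 3 without set 1, given without the share of all genes called. Utp15, at 26.0 against 33.0 CPM, and Mphosph10, at 45.6 against 56.8 CPM, had the lowest ratios among members with at least 200 counts. Ungated nuclei had 0 members called (background 0.694% and 2.28%) and a median of 0.16.

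The 117 B-lineage-gated nuclei had 5 members (8.47%) higher and 2 (3.39%) lower, beside 5.94% and 14.3% of measured genes. The share higher was near its background and the share lower was below it. Mrto4, Hspe1, Rrp12, Tmem97 and Utp20 were higher and Wdr12 and Farsa lower. Hspe1 was at 59.3, 241, 52.7 and 94.6 CPM in the sets, a pooled ratio of 1.85 (1.33 to 2.52), and Wdr12, a 60S assembly factor, was at 67.7, 0, 39.5 and 90.1 CPM, a ratio of 0.566 (0.389 to 0.797). Set 2 holds 5 of these nuclei. Farsa, a subunit of phenylalanyl-tRNA synthetase, rested on 18 UMIs. The other 4 called members rested on 14 to 88 UMIs, and fewer were called under several settings.

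Late erythroid-gated nuclei carry Slc4a1, globin and heme synthesis RNA and were found in sets 1 and 3 alone, with 57 and 47 nuclei. The module was at 31.3 and 25.7 UMIs per 10000 in these sets, beside 85.7 in erythroid-gated nuclei of the same sets, a ratio of 0.336 (0.307 to 0.366). Of 55 members measured against those 436 erythroid-gated nuclei, 47 (85.5%) were lower and 1 higher, beside 41.6% of the 6601 measured genes lower and 16.1% higher. The median log2 ratio was -1.61, beside -0.41 for all genes. Against stem-gated nuclei of the same sets 25 of 45 were lower and 1 higher (background 46.3% and 17.1%), with a summed level of 28.8 beside 44.1. That share, 55.6%, is close to its background. With ratios centred on the median of all genes, 44 members were lower and 1 higher against the erythroid class, beside 26% of genes lower and 26.2% higher.

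Depth limits single genes here, since the class holds 179427 non-mitochondrial UMIs and 44 members had fewer than 10 counts. Of the 15 with at least 10, 12 were lower. Wdr43 was at 83.6 against 470 CPM, a ratio of 0.178 (0.0993 to 0.295), Gnl3 at 83.6 against 428 CPM, 0.195 (0.109 to 0.323), and Nop56 at 123 against 538 CPM, 0.228 (0.142 to 0.346). Ncl was at 468 against 1052 CPM, 0.445 (0.354 to 0.553), and Hspd1 at 145 against 308 CPM, 0.471 (0.305 to 0.695). Farsa and Mphosph10, at 66.9 and 61.3 CPM, were not called. Another 8 members had 0 counts; with 3 counts as the floor for a zero over the class, Wdr74 was at least 2.81-fold and Bop1 at least 2.08-fold lower, Polr1c at least 1.74-fold and Rrp9 at least 1.62-fold. For Srm, Nop10 and Bysl, also among the 47, that floor allows 1.43-fold, 1.41-fold and 1.22-fold, below the 1.5-fold of the rule, and Grwd1, which was not measured, lay under the floor in the erythroid class too. With zeros set to the floor, 42 members were lower and the median log2 ratio was -1.34. The lowest ratios of detected members were those of Mybbp1a, 0.0871 (0.0105 to 0.317), and Hspe1, 0.0977 (0.0118 to 0.356), each on 2 counts, and Ppan, Tsr1 and Wdr12 were at 0.146, 0.120 and 0.213. At the other end, Las1l, Mrto4 and Tcof1 passed the rule with ratios of 0.417 to 0.507, on 3 to 7 counts, and their intervals include 1.

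**Figure D5:**
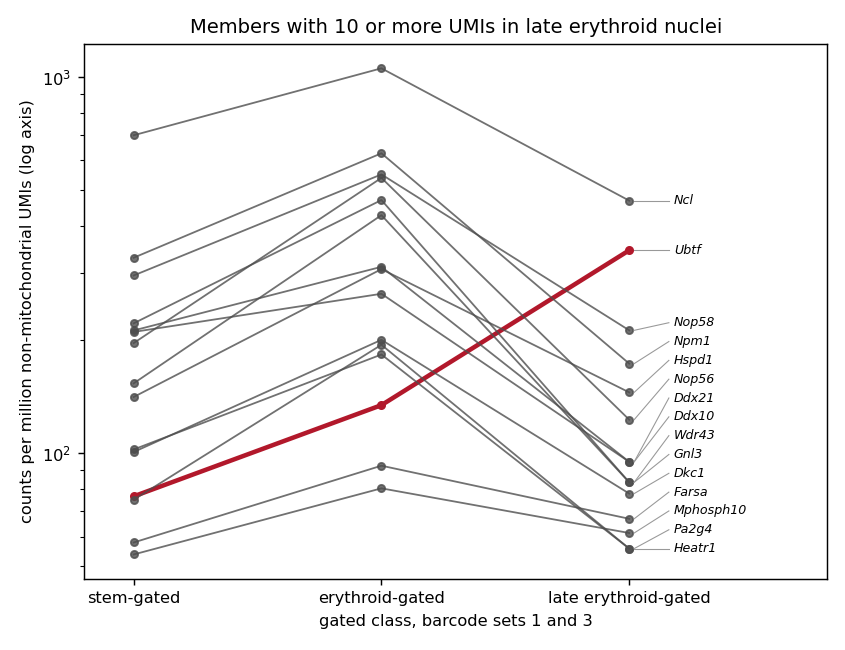
CPM over non-mitochondrial UMIs (y axis, log scale) in stem-gated, erythroid-gated and late erythroid-gated nuclei of barcode sets 1 and 3 (x axis) for the 15 members with at least 10 late erythroid UMIs. All 15 lie higher in the erythroid than in the stem class and all but Ubtf lie lower again in the late erythroid class; Ubtf (red) goes from 76.7 to 134 and 346.

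Ubtf was the exception. It was at 393 and 287 CPM in late erythroid nuclei of sets 1 and 3, at 132 and 135 CPM in erythroid-gated and at 77.1 and 76.4 CPM in stem-gated nuclei, so that the classes did not overlap. Its ratio to erythroid-gated nuclei was 2.58 (1.93 to 3.39) on 62 UMIs, while the other 5 genes of its role group were called lower; Polr1a, for one, was at 22.3 against 169 CPM. On chr11 (GRCm38.p6, 102304560 to 102323649) Ubtf lies 25171 bp from Slc4a1, the anion exchanger gene used for the late erythroid gate, which was at 2742 CPM in late erythroid and 10.4 CPM in erythroid-gated nuclei. Late erythroid nuclei above the median Slc4a1 level had 488 CPM of Ubtf and those at or below it 259 CPM, on 33 and 29 UMIs. In erythroid-gated nuclei, the 17 with a Slc4a1 UMI had 96.7 CPM of Ubtf and the 505 without had 125. Of other neighbours, Atxn7l3, 7515 bp away on the other side, was at 5.57 against 14 CPM on 1 late UMI. Hdac5, 74388 bp away on that side, was at 39.0 against 4.39 CPM on 7, and Slc25a39, 79320 bp away beyond Slc4a1, at 78.0 against 9.57 CPM on 14. The part of the neighbouring locus in the Ubtf value was not tested.

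Wider lists, also chosen with earlier results of these data known, were counted in the same way. Of 78 measured other ribosome biogenesis genes, 35 were higher and 0 lower in erythroid-gated against stem-gated nuclei, with a median log2 ratio of 0.57, and of 40 other MYC targets 17 were higher and 1, the hexokinase gene Hk2, lower, with a median of 0.57 (all genes, 13.5% higher and 21.8% lower). In myeloid-gated nuclei 2 of the 78, Ftsj3 and Lyar, and 13 of the 40 were higher, beside 6.57% of all genes. The myeloid calls among the MYC targets included Cad, the pyrimidine synthesis gene, Nme1, Ldha, Ran and Fasn. In late erythroid against erythroid-gated nuclei 56 of 74 ribosome biogenesis genes were lower and 0 higher, beside 41.6% and 16.1% of all genes, while among 37 MYC targets 27 were lower and 3 higher: Odc1, the polyamine synthesis gene, Tfrc, the transferrin receptor that brings iron for heme, and Paics, of purine synthesis.

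Myc RNA was at 60.3 CPM in stem-gated, 72.6 in myeloid-gated, 65.9 in erythroid-gated and 44.6 CPM in late erythroid-gated nuclei, the last on 8 UMIs. Its ratio to the stem class was 1.09 (95% counting interval 0.927 to 1.28) in the erythroid class, where that of the module was 1.92, and 0.739 (0.317 to 1.47) in the late erythroid class. In the myeloid class the Myc ratio was 1.20 (1.04 to 1.38) and that of the module 1.28. Ungated nuclei, at 75.4 CPM of Myc, had ratios of 1.25 (1.12 to 1.40) and 1.12. The Myc ratio was 1.08 (0.924 to 1.26) in lymphoid-gated and 0.978 (0.765 to 1.24) in megakaryocyte-gated nuclei, beside 1.03 and 1.17 for the module. These are RNA levels, and MYC protein was not measured. For Myc the stem class of all 4 sets was used, although late erythroid-gated nuclei came from sets 1 and 3 alone. Mycn was at 15.7 CPM in stem-gated, 35.1 in megakaryocyte-gated and 0.580 CPM in erythroid-gated nuclei.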

How the data were processed

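The deposited table holds raw UMI counts per gene and nucleus, with no normalization; the submitters' processing notes name Cell Ranger ARC, Seurat, Signac and the build mm10, and the sources used here give neither versions nor filters. All 8708 nuclei were kept, no doublet caller was run, and 347 had under 1000 non-mitochondrial UMIs. The chromatin samples were not used. The members, lists and gates were chosen with earlier results of these data known.

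A nucleus entered a class at a summed marker level per 10000 non-mitochondrial UMIs of at least 20 (stem), 10 (lymphoid, erythroid), 15 (myeloid), 6 (megakaryocyte), 5 (B-lineage), 50 (plasma), 30 (late erythroid), 20 (neutrophil) or 15 (dendritic and monocyte), from at least 2 genes. Counts were summed per class. Genes with at least 50 counts over both classes were compared on CPM plus 10; no p-value was made from nuclei. Intervals are 95% exact Poisson intervals, or exact binomial ones for ratios. For each comparison the called members were named (beyond 12, the 12 largest and 4 smallest), with the 2 lowest members of at least 200 counts; per role the member with most UMIs and the one with the largest erythroid ratio. The late erythroid, erythroid against myeloid and cell cycle level comparisons were added after the data were seen; late erythroid against stem-gated nuclei and the cell cycle level in erythroid nuclei are given by counts. The script was tested on simulated data. Tools were Python 3.11.15, numpy 2.4.6, scipy 1.17.1 and pandas 2.3.3. Sequences are from RefSeq, GRCm38.p6. Unused per-sample columns numbered 0.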

Additional observations from a re-analysis of the deposited data

How the results depend on the processing

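No paired analysis was possible because no barcode set is tied to a replicate number of the labels; comparisons within each set, and their mean, stand in its place. The medians of the lymphoid, myeloid and megakaryocyte comparisons moved by less than the spread of the barcode sets under each of their 17 alternatives. In all, 104 of 131 medians, 97 of 131 counts of higher and 116 of 131 counts of lower members stayed close to their first value. The cause of each change below was not tested. Counts of called members below are given without the share of all measured genes called under the same setting. They do not show whether a change was particular to the members. Depth limits the 12 B-lineage, 9 erythroid and 29 myeloid nuclei outside the cycling gate and the 104 late erythroid nuclei.

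Outside the cycling gate, the B-lineage median turned to -0.35 (1 higher, 12 lower), the erythroid median was 0.29 (7 higher, 11 lower), and members called were 4 higher and 2 lower in myeloid, 3 and 3 in megakaryocyte, 1 and 1 in lymphoid and 1 higher in ungated nuclei. The erythroid median was 0.60 over all UMIs, 0.96 with a pseudocount of 1, 0.75 with gates on nuclei thinned to 1000 UMIs and 0.77 as a mean of single sets. A fold of 2 gave 18 erythroid, 2 myeloid, 0 B-lineage (and 0 lower) and 0 cycling calls. A pseudocount of 1 gave 14 myeloid, 6 megakaryocyte, 2 ungated and 4 cycling stem (1 lower) calls. Gates at 0.5 times the threshold left 4 myeloid and 2 B-lineage calls and an ungated median of 0.089. Gates at 1.5 times the threshold gave 2 lymphoid, 4 megakaryocyte and 8 B-lineage calls (1 lower; median 0.24) and 2 cycling calls (median 0.11). Thinned gates gave 2 megakaryocyte, 2 B-lineage (4 lower; median 0.22) and 2 cycling calls (median 0.13), and an ungated median of 0.11, as did all UMIs (0.11). Centring on all genes gave 1 megakaryocyte and 1 lower B-lineage call (median 0.21). The mean of single sets gave 1 megakaryocyte and 3 B-lineage calls (1 lower; median 0.046). Without the deepest 5% of nuclei there were 2 cycling and 1 lower B-lineage call (median 0.23). Requiring 200 counts left 2 B-lineage calls, and a cell cycle level of 40 left 1 lower B-lineage call; in stem-gated nuclei that level against under 8 gave 3. Without single sets, megakaryocyte calls were 3 (set 1), 3 (set 3) and 2 (set 4), lymphoid calls 1 (set 4), cycling calls 3 (set 3) and lower B-lineage calls 1 (set 3).

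The late erythroid median against erythroid-gated nuclei was -1.32 over all UMIs, -1.20 centred, -1.88 with a pseudocount of 1, -1.77 (28 lower) at 200 counts, -1.42 and -1.71 with gates at 0.5 and 1.5 times the threshold, -1.56 with thinned gates, -1.63 without the deepest nuclei, -1.64 as a mean of sets, -1.67 without set 1 and -1.52 without set 3.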
